A study of Mus musculus with 9 samples.

Results

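The genes described here are 10 imprinted genes that act on growth: H19, Meg3, Peg3, Peg10, Plagl1, Cdkn1c, Dlk1, Ndn, Mest and Grb10. They were found by equality of the gene name on the non-control probes of a mouse expression array, which gave 26 probes for the 10 genes, among 25397 genes tested over all 9 arrays. All 10 passed the filter on dim probes. RNA of 4 groups was hybridised, each sample on 1 single-colour array: 3 samples of glioma tissue, a brain tumour with EZH2 knocked out in the MADM (Mosaic Analysis with Double Markers) mouse background, 2 samples of glioma cells of the same MADM background, 2 of neural stem cells and 2 of astrocytes, the last 2 groups from wild-type C57BL/6J brain. The driver of recombination, the alleles that start the tumours, the EZH2 genotype of the glioma cells and the ages are not given in the sources used here. Strain background and tumour state therefore cannot be told apart between glioma and normal cells. The labels do not say that samples of a group came from separate animals or cultures, so p-values reflect only how these samples varied, in part perhaps technically.

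An imprinted gene is transcribed mainly from the copy inherited from 1 parent, because DNA methylation set in the egg or the sperm marks an imprinting control region near it. Imprinted genes lie in clusters, and maternally expressed members such as H19, Cdkn1c and Grb10 often restrain growth while paternally expressed members such as Igf2, Dlk1 and Mest often promote it. Several of these genes are high in embryonic tissues and fall after birth, and the family is described in neural stem cells of the brain. An array measures both copies together and does not show which parent's copy was read.

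Levels below are on the log2 scale and relative to the array, whose 75th percentile of processed signals is set to 0, so that each step of 1 is a 2-fold step. Each gene is given by its brightest tested probe, and levels of different genes are not set against each other. Probes are shown of H19, which varied most between arrays of 1 group, and of Meg3, which passed the test in the most comparisons. The first 2 lines are the brightest and the dimmest H19 probe, on the minus strand of mm9 at chr7:149761492-149761551 and chr7:149762417-149762476, and the last 2 are from Meg3 on the plus strand, at chr12:110799558-110799617 for the dimmer and chr12:110809678-110809737 for the brightest. The annotation of exons is not used here.
H19 brightest: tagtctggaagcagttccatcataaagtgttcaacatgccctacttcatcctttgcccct
H19 dimmest: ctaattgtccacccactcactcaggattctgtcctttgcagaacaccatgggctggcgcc
Meg3 dimmer: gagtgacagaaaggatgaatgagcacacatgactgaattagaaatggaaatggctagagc
Meg3 brightest: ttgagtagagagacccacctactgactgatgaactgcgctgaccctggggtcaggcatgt

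Promoters are shown for Meg3, Dlk1 and Plagl1, the 3 genes that passed the test together in glioma cells against astrocytes. They are windows of 300 bases, mostly before the start of the gene in RefSeq (GRCm38.p6), with CpG, the site of the methylation that marks imprints, in capitals. The RefSeq table held windows for 7 of the 10 genes. The windows lie at chr12:109540746-109541045 on the plus strand for the first start of Meg3, chr12:109452573-109452872 on the plus strand for Dlk1, and chr10:13090582-13090881 on the plus strand for Plagl1.
Meg3: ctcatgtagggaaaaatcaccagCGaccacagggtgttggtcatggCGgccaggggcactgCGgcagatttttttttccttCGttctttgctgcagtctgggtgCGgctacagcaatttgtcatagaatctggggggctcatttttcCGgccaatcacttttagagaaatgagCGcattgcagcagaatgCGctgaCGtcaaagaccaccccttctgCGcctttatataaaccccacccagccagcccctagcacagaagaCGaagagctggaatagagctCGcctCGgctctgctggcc
Dlk1: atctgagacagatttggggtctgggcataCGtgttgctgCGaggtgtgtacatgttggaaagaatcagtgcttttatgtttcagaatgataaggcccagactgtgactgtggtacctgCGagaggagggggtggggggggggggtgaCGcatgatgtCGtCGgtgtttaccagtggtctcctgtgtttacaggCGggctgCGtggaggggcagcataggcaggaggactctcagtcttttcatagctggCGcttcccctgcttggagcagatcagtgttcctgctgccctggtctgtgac
Plagl1: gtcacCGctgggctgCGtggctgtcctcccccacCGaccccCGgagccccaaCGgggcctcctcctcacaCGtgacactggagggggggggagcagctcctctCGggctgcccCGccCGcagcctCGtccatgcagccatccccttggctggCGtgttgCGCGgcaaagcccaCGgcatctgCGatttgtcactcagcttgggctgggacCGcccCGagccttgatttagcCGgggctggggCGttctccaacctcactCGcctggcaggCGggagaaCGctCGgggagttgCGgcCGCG

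The windows held 13 CpG for Meg3, 9 for Dlk1 and 26 for Plagl1, against a median of 7 over 32851 promoter windows of the same length. TGCCGC, the hexamer of the imprint-maintaining zinc finger protein ZFP57, searched on both strands, occurred in the windows of Meg3 and Plagl1 and not in that of Dlk1. It occurs in 11.6% of all windows. GGGGCCCC, a motif of the PLAGL1 protein itself, occurred in none of these 3 windows and in 1.08% of all windows.

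Each array had 62976 spots. Of the 59305 non-control spots, 60.1% to 65.7% were well above background and none was saturated. Ezh2, the targeted gene, has 1 probe on the array, with levels of 1.91, 1.62 and 1.48 in EZH2-KO glioma tissue, 3.03 and 3.24 in glioma cells, 2.14 and 3.38 in neural stem cells, and 0.19 and -0.58 in astrocytes. The place of that probe relative to the deleted part is not given and tumour tissue holds other cells, so it checks nothing. Markers of oligodendrocyte precursors averaged 4.46 to 4.90 in the tissue and 4.23 to 5.07 in glioma cells, with 3.72 and 2.39 in neural stem cells and -2.26 to -1.72 in astrocytes. Markers of neural stem cells averaged 3.19 to 3.46 in the tissue, 0.98 and 3.40 in glioma cells, 4.11 and 4.22 on the arrays of that label, and 3.30 and 2.25 in astrocytes. Glioma cells array 1, at 0.98, stood apart: Sox2 (-7.55) and Prom1 (-6.27) were not well above background there. H19, Meg3, Plagl1, Cdkn1c, Dlk1, Ndn and Mest had their lowest values of all 9 arrays on it, and Peg3 had its highest. The astrocyte arrays had astrocyte markers at 4.01 and 2.39, but also microglia and macrophage markers at 3.18 and 3.67, and fibroblast and meningeal markers at 0.92 on array 1 and 5.27 on array 2. In such bulk samples, fewer cells of a type and less RNA per cell cannot be told apart. The tissue arrays lay on 1 slide and all cell arrays on another, with another version of the scanner software, so slide, scan and tissue cannot be told apart.

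**Figure D1:**
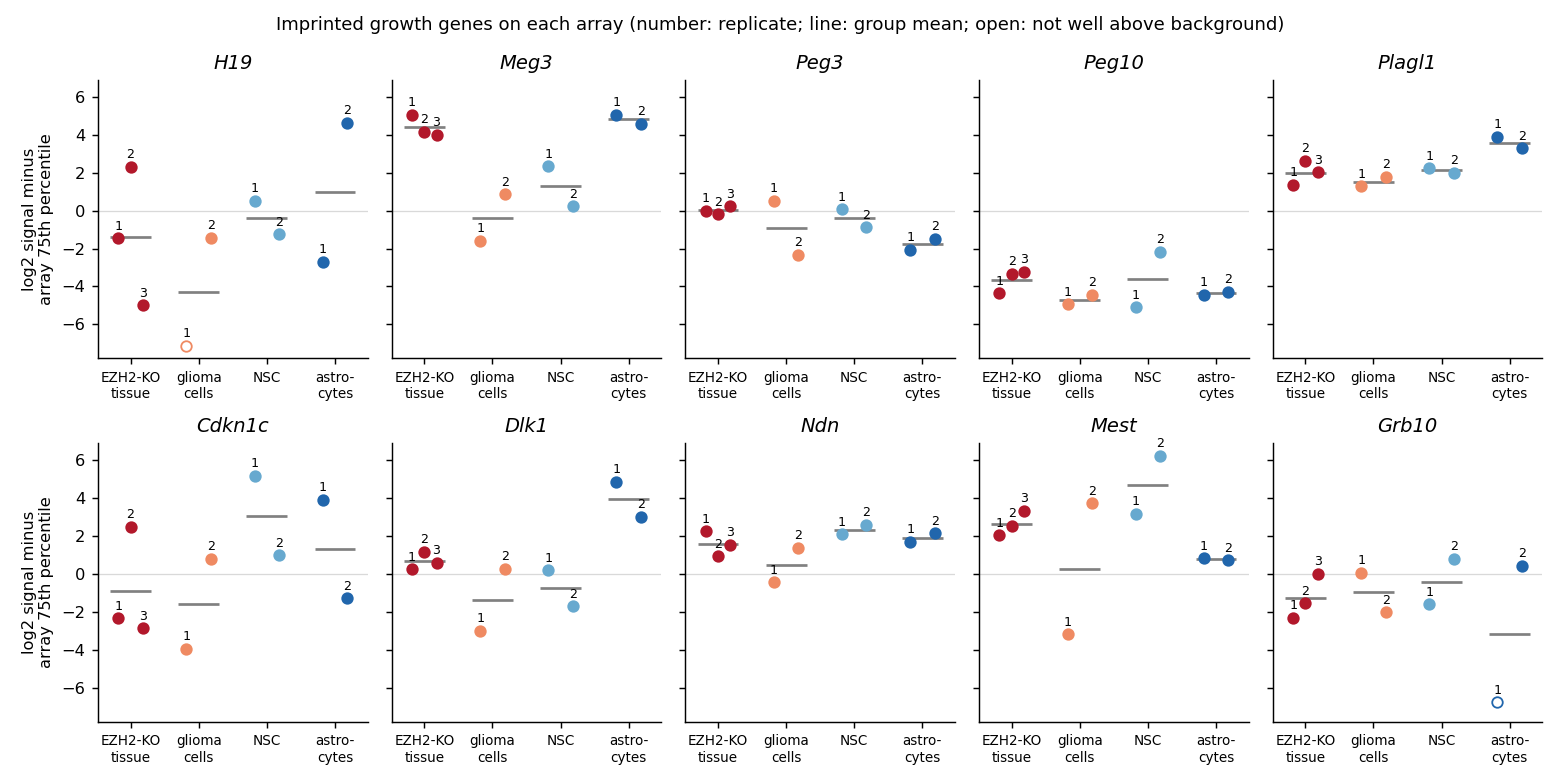
Level of each of the 10 imprinted genes (log2 signal minus the array's 75th percentile) on each of the 9 arrays, by group. Numbers are replicates, lines are group means and open circles are arrays on which the probe was not well above background. H19, Cdkn1c, Mest, Dlk1 and Grb10 spread over more than 7 log2 units, and Meg3 and Dlk1 are highest in astrocytes or level with EZH2-KO glioma tissue there.

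Meg3 and Dlk1 lie in the same cluster on chromosome 12. Meg3 is a long non-coding RNA transcribed from the maternal copy, and Dlk1 is a membrane protein related to Notch ligands, transcribed from the paternal copy. Meg3 stood at 5.05, 4.15 and 4.01 in EZH2-KO glioma tissue, at -1.60 and 0.87 in glioma cells, at 2.35 and 0.24 in neural stem cells, and at 5.06 and 4.58 in astrocytes. Tissue and astrocytes were high, neural stem cells lower and glioma cells lowest, with the glioma cells and the neural stem cells overlapping. Called below means a Benjamini-Hochberg adjusted p under 0.05 over all genes tested with at least a 2-fold difference, by limma. Meg3 was called 36.3-fold lower in glioma cells than in astrocytes (log2 fold change -5.18, SE 1.04, limma adjusted p = 0.0287). In glioma cells against neural stem cells Meg3 differed by -1.66 (SE 1.04, limma adjusted p = 0.56), which was not called. It was 27.3-fold higher in EZH2-KO glioma tissue than in glioma cells (log2 4.77, SE 0.84, limma adjusted p = 0.00987) and 8.65-fold higher than in neural stem cells (log2 3.11, SE 0.84, limma adjusted p = 0.0407). Microglia and macrophage markers, all 9 well above background in tissue and astrocytes, were likewise high in these groups, lower in neural stem cells and lowest in glioma cells. They averaged 3.58, 4.34 and 3.36 in EZH2-KO glioma tissue, -3.20 and -2.78 in glioma cells, -0.34 and -1.64 in neural stem cells, and 3.18 and 3.67 in astrocytes. Astrocyte markers averaged 2.28 to 3.26 in the tissue and -1.03 and -0.68 in glioma cells, and neuron markers 3.02 to 4.31 in the tissue and -0.14 and 1.40 in glioma cells. Astrocyte markers averaged 3.68 and 0.57 in neural stem cells and 4.01 and 2.39 in astrocytes. Neuron markers, unlike Meg3, were lower in astrocytes (0.64 and 0.02) than in neural stem cells (2.04 and 1.22). The part of these cells in the differences of Meg3, and in those of Dlk1 and Plagl1 given next, was not tested. Tissue and astrocytes differed by -0.41 in Meg3 (SE 0.84, limma adjusted p = 0.746), and their arrays overlapped. Neural stem cells lay below astrocytes by 3.53 (SE 1.04), which did not pass the test (limma adjusted p = 0.0783). The dimmer Meg3 probe shown above followed the brightest with a Pearson r of 0.85 over 9 arrays. It was higher in tissue (1.16, 1.73 and 0.63) than on the astrocyte arrays (-0.63 and -1.90), and the mean over the gene's probes put tissue above astrocytes, by 0.44. Leaving out glioma cells array 1 ended the call of Meg3 in tissue against glioma cells (log2 3.54) and, with astrocytes as the other group, so did leaving out that array (-3.95) or astrocyte array 1 (-4.94) or 2 (-5.43). Against neural stem cells the call was lost without any single tissue array, either astrocyte array or neural stem cells array 2, with values of 2.06 to 3.31.

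Dlk1 stood at 0.24, 1.18 and 0.60 in EZH2-KO glioma tissue, at -2.98 and 0.26 in glioma cells, at 0.18 and -1.69 in neural stem cells, and at 4.85 and 3.02 in astrocytes. Both astrocyte arrays lay above all 7 others. Dlk1 was called 39.3-fold lower in glioma cells than in astrocytes (log2 -5.30, SE 1.31, limma adjusted p = 0.0477). The differences of neural stem cells (-4.69, SE 1.31, limma adjusted p = 0.0702) and of tissue (-3.26, SE 1.03, limma adjusted p = 0.0551) from astrocytes did not pass. The glioma cell arrays differed from each other by 3.25. The call was lost when either astrocyte array, either neural stem cell array or glioma cells array 1 was left out, with values of -6.21 to -3.67. Over the 9 arrays Dlk1 correlated with Meg3 at r = 0.82 and with Plagl1 at r = 0.89, as a description of arrays that share their groups.

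Other transcripts of the Dlk1 cluster were measured too. Mirg, a non-coding host of microRNAs, stood at 2.34, 0.97 and 0.64 in EZH2-KO glioma tissue, -3.14 and -2.55 in glioma cells, -1.51 and -2.38 in neural stem cells, and 1.31 and 0.53 in astrocytes. It was called lower in glioma cells than in astrocytes (log2 -3.77, SE 0.47, limma adjusted p = 0.00882) and in neural stem cells than in astrocytes (-2.87), and higher in tissue than in glioma cells (4.16) and than in neural stem cells (3.26). Dio3, the deiodinase that inactivates thyroid hormone, was lower in tissue than in astrocytes (log2 -2.42, SE 0.42, limma adjusted p = 0.00721), with 1 of 3 tissue arrays well above background. On none of the 9 arrays was the Rtl1 probe well above background.

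Plagl1 on chromosome 10, also known as Zac1, encodes a paternally expressed zinc finger transcription factor that acts on other imprinted genes. It stood at 1.36, 2.62 and 2.01 in EZH2-KO glioma tissue, at 1.28 and 1.77 in glioma cells, at 2.24 and 1.99 in neural stem cells, and at 3.89 and 3.27 in astrocytes. Astrocytes were again above the 7 other arrays, which overlapped each other apart from glioma cells and neural stem cells. Plagl1 was called 4.15-fold lower in glioma cells than in astrocytes (log2 -2.05, SE 0.36, limma adjusted p = 0.0199). In EZH2-KO glioma tissue it was also called lower than in astrocytes (log2 -1.58, SE 0.41, limma adjusted p = 0.0300). Against neural stem cells, glioma cells differed by -0.59 (SE 0.36, limma adjusted p = 0.54) and tissue by -0.12 (SE 0.41, limma adjusted p = 0.862), neither called. Neural stem cells lay below astrocytes by 1.46 (SE 0.36, limma adjusted p = 0.0528). Its 4 probes did not behave alike. A second bright probe, which shares a run of 26 bases with the first, followed it at r = 0.998, while the other 2 followed it at r = 0.12 and 0.40 and spanned 1.15 and 0.54 log2 units over all arrays. The mean of the 4 probes gave -0.82 for tissue against astrocytes, which was not called. Leaving out glioma cells array 1 (-1.81) or 2 (-2.30) or astrocyte array 1 (-1.75) ended the call in glioma cells. The call in tissue was lost without tissue array 1 or 3 or either astrocyte array, with values of -1.89 to -1.26.

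**Figure D2:**
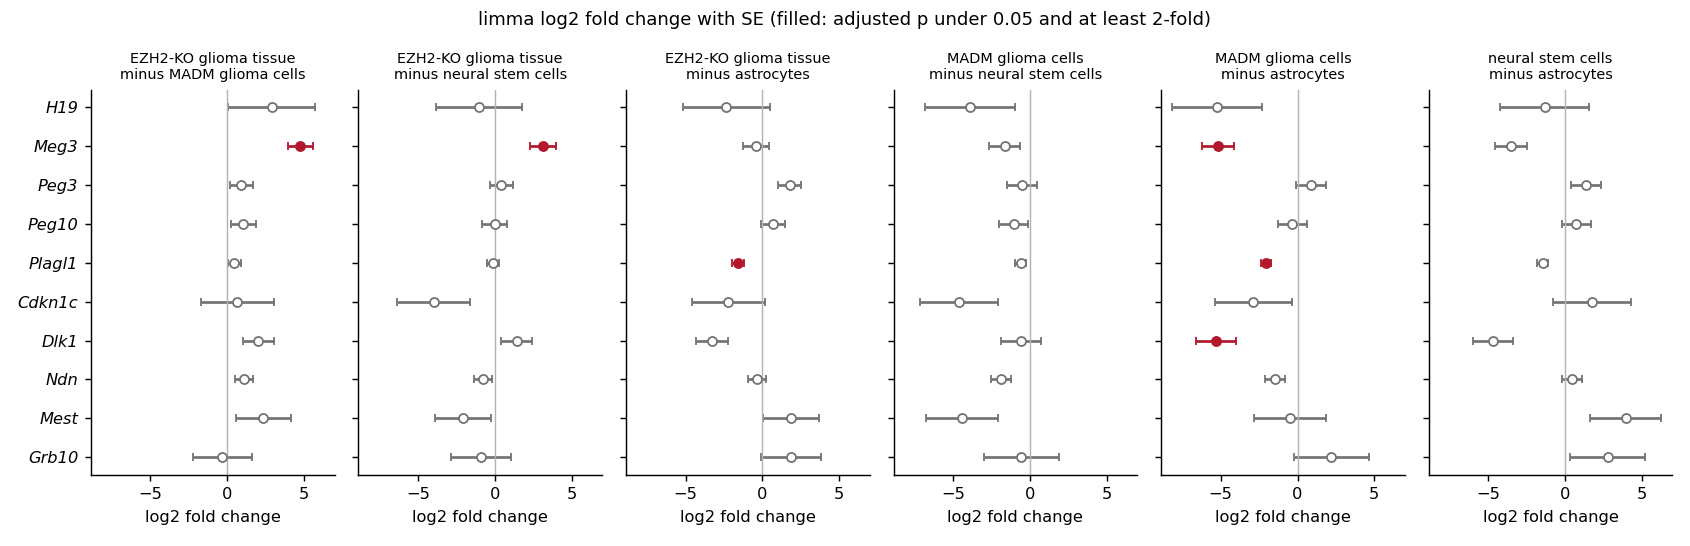
Log2 fold change of the 10 genes with its standard error, from limma, in the 6 comparisons. Filled points passed the test: Meg3 in 3 comparisons, Plagl1 in 2 and Dlk1 in 1, and the intervals of H19, Cdkn1c, Mest and Grb10 are the widest.

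H19 and Cdkn1c lie in neighbouring imprinted domains at the end of chromosome 7. H19 is a maternally expressed non-coding RNA next to Igf2, the paternally expressed insulin-like growth factor, with which it shares enhancers and an imprinting control region bound by CTCF. H19 stood at -1.46, 2.31 and -5.00 in EZH2-KO glioma tissue, at -7.13 and -1.43 in glioma cells, at 0.51 and -1.24 in neural stem cells, and at -2.71 and 4.64 in astrocytes. The lowest value, on glioma cells array 1, was not well above background. Arrays of 1 group differed by up to 7.35 log2 units, and the whole range was 11.77. The SD between arrays of a group was 3.78, larger than for 99.99% of the genes tested. No comparison called H19: the differences ran from -5.24 (SE 2.92, limma adjusted p = 0.248) for glioma cells against astrocytes to 2.89 (SE 2.82, limma adjusted p = 0.505) for tissue against glioma cells. The swings did not rest on 1 probe. The other 6 probes followed the brightest, 5 of them at r of 0.88 to 0.99 and the dimmest, shown above and well above background on 2 arrays, at 0.59, and no 2 H19 probes share a run of more than 8 bases.

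Igf2 was not tested, since no group had its probe well above background on every array. It stood at -4.43, 4.79 and -5.15 in EZH2-KO glioma tissue, -4.08 and -4.91 in glioma cells, -3.86 and -5.14 in neural stem cells, and -5.71 and 1.32 in astrocytes. It was high on tissue array 2 and astrocyte array 2, the arrays with the highest H19. Astrocyte array 2 also had the highest fibroblast and meningeal markers, 9 of 9 well above background, with Col1a2 at 6.9 and Dcn at 6.7 there and both at -0.8 on astrocyte array 1. Some other markers were high on both astrocyte arrays, with Col1a1 at 4.69 and 5.82 and Fn1 at 5.55 and 8.06. The mean level of the 9 fibroblast and meningeal markers was -1.93 to -0.06 in the tissue, -4.13 and -2.32 in glioma cells, -2.08 and -1.06 in neural stem cells and 0.92 and 5.27 in astrocytes. On tissue array 2 these markers averaged -0.06, beside -0.10 on tissue array 1. Their part in the levels of H19 and Igf2 was not tested. Igf2r, the receptor that clears Igf2, lay between 0.78 and 2.93 on all 9 arrays and was called in no comparison.

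Cdkn1c encodes p57, an inhibitor of cyclin-dependent kinases, and is transcribed from the maternal copy when the antisense RNA Kcnq1ot1 is silent there. It stood at -2.34, 2.48 and -2.86 in EZH2-KO glioma tissue, at -3.94 and 0.81 in glioma cells, at 5.17 and 0.98 in neural stem cells, and at 3.91 and -1.29 in astrocytes. In every group an array differed from another by more than 4 log2 units, and no comparison called it. Glioma cells lay below neural stem cells without overlap, by 4.63 (SE 2.53, limma adjusted p = 0.494). Kcnq1ot1, at its brighter probe, stood at 1.18, 2.71 and 1.08 in EZH2-KO glioma tissue, 2.15 and -7.00 in glioma cells, 1.46 and 1.36 in neural stem cells, and 1.25 and 0.27 in astrocytes. On glioma cells array 2 neither of the 2 probes with that spelling was well above background, and the second gave -6.94 there, with -3.30 to -0.79 on the other 8 arrays. The array also holds 5 probes under the spelling KCNQ1ot1, at another place of the chromosome (chr7:150481806-150482398 in mm9), and these did not all do the same. On glioma cells array 2, 3 of them were not well above background, while 1 stood at -0.58, its highest value on the 9 arrays (-2.01 on glioma cells array 1), and 1 at -3.96 (-3.73 on glioma cells array 1), both well above background. The probes thus do not give 1 level for the transcript on that array, which was the glioma cell array with the higher Cdkn1c. In the other groups Cdkn1c differed between arrays while Kcnq1ot1 at its brighter probe differed by less than 2 log2 units. Each array is a single sample here, and the pattern was noticed after the values were seen.

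**Figure D3:**
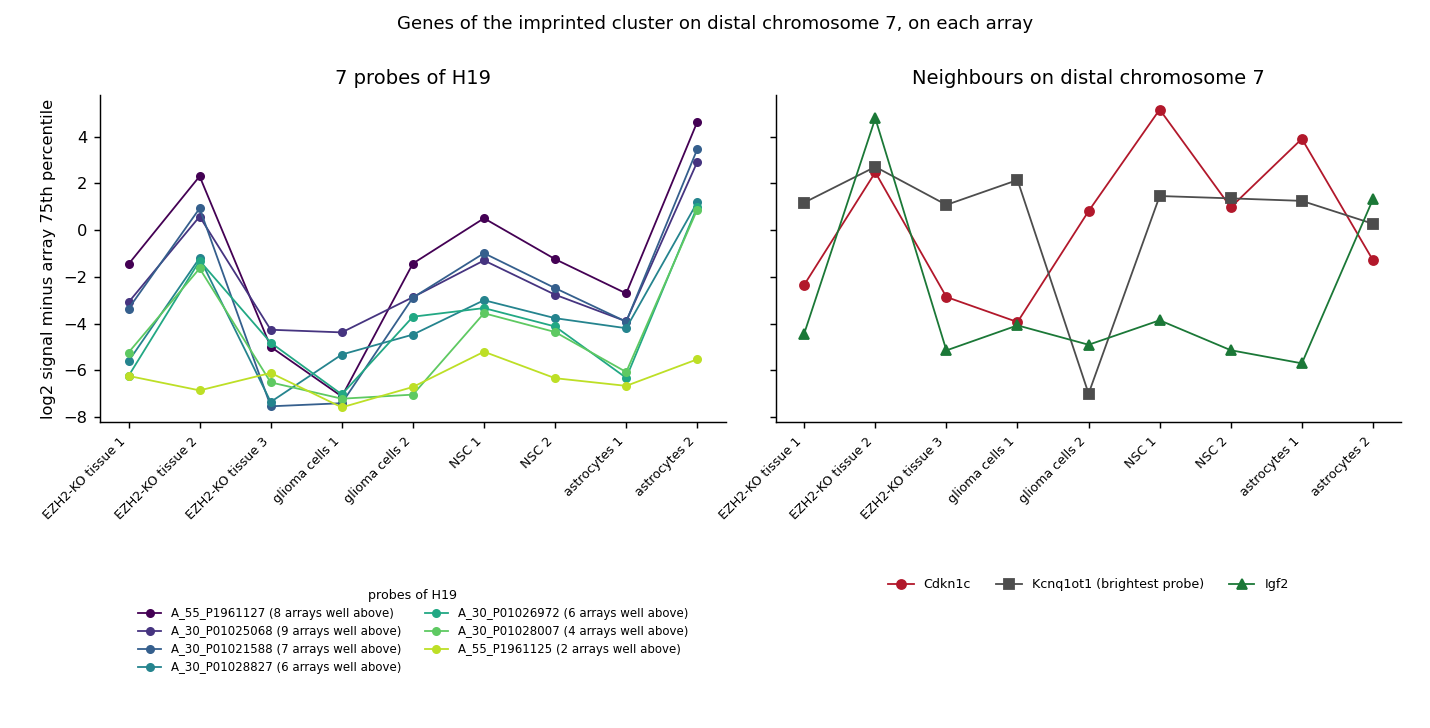
Levels (log2 signal minus the array's 75th percentile) on each array: left, the 7 probes of H19, and right, Cdkn1c, Kcnq1ot1 and Igf2. The H19 probes rise and fall together apart from the dimmest, the Kcnq1ot1 probe drawn is not well above background on glioma cells array 2 only, where 2 probes of the spelling KCNQ1ot1 are, and Igf2 stands out on tissue array 2 and astrocyte array 2.

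On tissue array 2 the high H19, Igf2 and Cdkn1c came with high neighbours. From the H19 probe to the end of chromosome 7, 27 of 31 other genes well above background on all 9 arrays were highest on tissue array 2 among the tissue arrays, or 87.1%. The same held for 21.3% of 1430 genes before H19 on that chromosome and for 29.1% of 18020 genes on other chromosomes. The median difference of tissue array 2 from the mean of the other tissue arrays was 1.53 over the 31 genes and -0.07 over other chromosomes. Cdkn1c differed by 5.08, Ascl2, a maternally expressed transcription factor, by 4.87, and Tssc4 by 3.46, all above that median. Of other imprinted genes there, Cd81 (2.37) and Ins2 (2.22) were also above it. Osbpl5 (1.53) was at the median, and Nap1l4 (1.27) and Th (-0.27) were below. Smim38, not among the imprinted genes listed, differed by 5.85, more than Cdkn1c. A second stretch lies before H19: 11 consecutive measured genes from Ptdss2 to Gatd1, 1.42 to 1.17 Mb away, differed by 2.28 to 5.73. Among them the proto-oncogene Hras stood at 3.79, 6.82 and 2.47 in the EZH2-KO glioma tissue arrays 1, 2 and 3, against 2.70 to 3.67 on the cell arrays. Of 351 windows of 5 Mb over the genome with at least 20 genes, the last of chromosome 7 had the highest median on tissue array 2, at 1.53, and a window at 100 to 105 Mb of chromosome 7 followed at 1.51. The same windows also ranked highest for glioma cells array 1 minus array 2, at 0.63 for the last of chromosome 7 and 1.17 for that at 100 to 105 Mb. Tissue array 1 reached 1.74, at 25 to 30 Mb of chromosome 12, and tissue array 3 at most 0.83. These stretches were found after the values were seen and carry no test. Without tissue array 2, H19 in tissue against neural stem cells was -2.86 in place of -1.02.

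**Figure D4:**
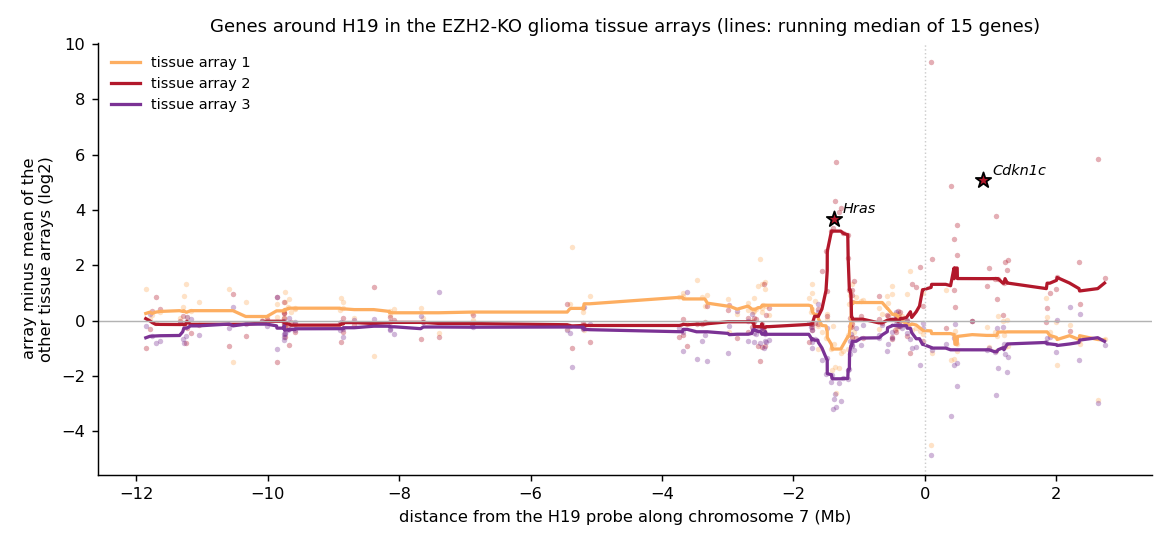
Each point is a gene of chromosome 7 well above background on all 9 arrays, placed by its distance in Mb from the H19 probe; the vertical axis is a tissue array minus the mean of the other tissue arrays (log2), and lines are running medians of 15 genes. Tissue array 2 rises near Hras and again from H19 onwards, where Cdkn1c (star) differs by 5.08, while H19 itself, below background on 1 array, is not drawn.

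The neighbours of Cdkn1c and H19 had small median differences between arrays of a cell group. Within 1 Mb, 26 genes near Cdkn1c differed by medians of 0.38, -0.12 and -0.13 between array 1 and array 2 of glioma cells, neural stem cells and astrocytes, while Cdkn1c differed by -4.75, 4.19 and 5.20. Around H19, 38 genes had a median of -0.07 between the astrocyte arrays, where H19 differed by -7.35. Grb10 had 5 such neighbours, with medians of 0.51, -0.62 and -0.07 in glioma cells, neural stem cells and astrocytes, where Grb10 differed by 2.09, -2.40 and -7.22. Of the 5, 3 were higher and 2 lower between the glioma cell arrays. Between the arrays of neural stem cells, and between those of astrocytes, 2 were higher and 3 lower.

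Mest on chromosome 6 is a paternally expressed gene of the hydrolase family that promotes embryonic growth. It stood at 2.04, 2.54 and 3.34 in EZH2-KO glioma tissue, at -3.17 and 3.73 in glioma cells, at 3.19 and 6.23 in neural stem cells, and at 0.82 and 0.72 in astrocytes. Tissue, neural stem cells and glioma cells array 2 were above astrocytes, and glioma cells array 1 was far below. All 3 of its probes gave this picture, at r = 0.97 with the brightest, and 29 neighbours within 1 Mb differed by a median of 0.17 between the glioma cell arrays where Mest differed by -6.90. Neural stem cells exceeded astrocytes by 3.94 (SE 2.33, limma adjusted p = 0.283), which was not called.

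Grb10 on chromosome 11 encodes an adaptor that binds the insulin and IGF1 receptors and dampens their signal, and in neurons it is read from the paternal copy. It stood at -2.31, -1.55 and 0.02 in EZH2-KO glioma tissue, at 0.07 and -2.02 in glioma cells, at -1.61 and 0.79 in neural stem cells, and at -6.78 and 0.44 in astrocytes. Only astrocyte array 1 was not well above background, and without it the differences from astrocytes turned sign. Leaving that array out gave -1.41 for glioma cells, -0.85 for neural stem cells and -1.72 for tissue, against 2.20, 2.76 and 1.89 with it. Of the genes that act beside p57 and Grb10, 12 or 13 of 13 listed were tested in each comparison. In glioma cells 1 was called lower than in astrocytes (9.84% of all genes) and 1 higher than in neural stem cells (0.66%). In neural stem cells 3 were called lower than in astrocytes (7.85%). Tissue had 1 higher than glioma cells (7.82%), 3 higher than neural stem cells (8.08%) and 1 higher than astrocytes (10.6%). Cdkn2b, the p15 inhibitor of cyclin-dependent kinases, was lower in glioma cells than in astrocytes (log2 -3.89, SE 0.86, limma adjusted p = 0.0367), and no other of that list was called there. Cdkn2b was also called lower in neural stem cells than in astrocytes (-3.65, SE 0.86, limma adjusted p = 0.0491). Glioma cells and neural stem cells differed by -0.24 in Cdkn2b, which was not called. Cdkn2a, which encodes p16 and p19Arf, was lower in neural stem cells than in astrocytes (-4.79, SE 0.86, limma adjusted p = 0.0261) and higher in tissue than in neural stem cells (4.68, SE 0.75, limma adjusted p = 0.0068). Grb14, a relative of Grb10, was higher in glioma cells than in neural stem cells (3.13, SE 0.39, limma adjusted p = 0.0466). Neural stem cells were also below astrocytes (-2.88, SE 0.39, limma adjusted p = 0.0135) and tissue above neural stem cells (3.04, SE 0.58, limma adjusted p = 0.0128). Glioma cells and astrocytes differed by 0.25 in Grb14. Grb7, on no cell array well above background, was called higher in tissue than in each cell group.

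Peg3, Ndn and Peg10 are all paternally expressed. They spanned 2.85, 3.05 and 2.94 log2 units over the 9 arrays, less than H19, Cdkn1c, Mest, Dlk1 and Grb10. Their SD between arrays of a group (0.98, 0.74 and 1.02) still exceeded that of 87.1%, 77.6% and 88.6% of genes. Peg3, a zinc finger protein of chromosome 7, stood at -0.01, -0.20 and 0.24 in EZH2-KO glioma tissue, at 0.52 and -2.33 in glioma cells, at 0.07 and -0.89 in neural stem cells, and at -2.05 and -1.50 in astrocytes. Tissue lay above astrocytes without overlap, by 1.79 (SE 0.76), which did not pass the test (limma adjusted p = 0.124). Ndn, or necdin, a growth suppressor of neurons from the Prader-Willi region, stood at 2.24, 0.94 and 1.53 in EZH2-KO glioma tissue, at -0.44 and 1.38 in glioma cells, at 2.08 and 2.60 in neural stem cells, and at 1.69 and 2.15 in astrocytes. Glioma cells lay below neural stem cells by 1.87 (SE 0.65, limma adjusted p = 0.285) and below astrocytes by 1.45 (SE 0.65, limma adjusted p = 0.168), without overlap and without passing the test. Peg10, derived from a retrotransposon, lay from -5.10 to -2.16 on all 9 arrays, with neural stem cells at both ends.

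Counted together, 3 of the 10 genes were called lower in glioma cells than in astrocytes (Meg3, Plagl1 and Dlk1) and none higher, where 18.8% of all 24866 genes tested were called and 9.84% called lower. In glioma cells against neural stem cells none of the 10 was called, where 0.977% of all genes were. In neural stem cells against astrocytes none was called, where 14.6% of all genes were. EZH2-KO glioma tissue had 1 of 10 called higher than glioma cells (Meg3, with 16.9% of all genes called and 7.82% higher), 1 of 10 higher than neural stem cells (Meg3, with 18% called and 8.08% higher) and 1 of 10 lower than astrocytes (Plagl1, with 23% called and 12.4% lower). The shares of 1 in 10 are near these backgrounds. The median log2 fold change of the 10 was -1.75 in glioma cells against astrocytes, beside 0.15 over all genes. It was -1.36 in glioma cells against neural stem cells (-0.05 over all genes) and 0.57 in neural stem cells against astrocytes (0.21). For EZH2-KO glioma tissue it was 1.08 against glioma cells (-0.16), -0.45 against neural stem cells (-0.22) and -0.38 against astrocytes (-0.06). Glioma cells array 1 had the lowest values of all arrays for H19, Meg3, Plagl1, Cdkn1c, Dlk1, Ndn and Mest. The part of that array in these medians was not tested. The arrays of 5 of the 10 did not overlap in glioma cells against astrocytes, where 69.2% of all genes did not. The count was 4 in glioma cells against neural stem cells (46% of all genes) and 5 in neural stem cells against astrocytes (66.3%). With EZH2-KO glioma tissue it was 2 against glioma cells (55.2%), 2 against neural stem cells (52.3%) and 4 against astrocytes (58%). The count of 4 in glioma cells against neural stem cells is near its background. These are counts of only 10 genes in comparisons that share arrays, and their distance from the shares of all genes was not tested.

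The 10 genes differed in how much arrays of 1 group varied, and most varied more than the bulk of genes. The SD between arrays of a group had a median of 1.22 over the 10, beside 0.43 over all genes. Arrays of 1 group differed by at least 8-fold for 5 of the 10 (H19, Cdkn1c, Mest, Grb10 and Dlk1), for 12 of 46 other imprinted genes tested and for 7.43% of all genes. The step of 8-fold was chosen after the values were seen. In 6 of the 10 the range within a group exceeded the span of the group means, as in 31.6% of all genes. Plagl1 had the smallest SD, 0.48, with 56.8% of genes below it, followed by Ndn at 0.74, with 77.6% below.

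**Figure D5:**
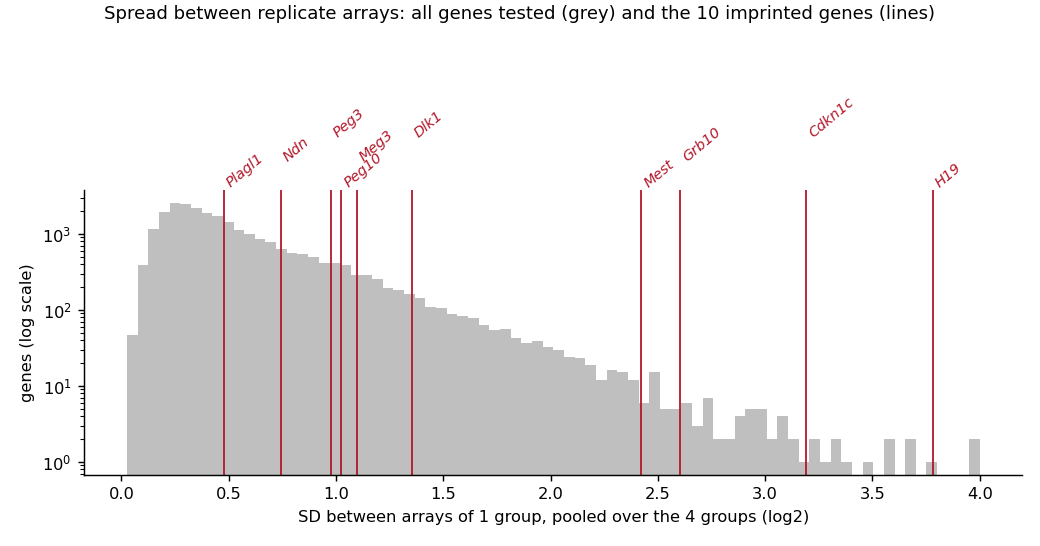
SD between arrays of 1 group, pooled over the 4 groups (log2), for all 25397 genes tested (grey, on a log axis of counts) and for the 10 imprinted genes (lines). Plagl1 lies near the bulk of genes at 0.48, and Mest, Grb10, Cdkn1c and H19 lie in the far tail, up to 3.78.

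Among 56 other imprinted genes, 45 were tested in the cell comparisons and 46 in those with tissue. In glioma cells against astrocytes 4 were called higher and 5 lower, where 9% of all genes tested were called higher and 9.84% lower, so that the counts are near the background. The higher ones included Peg12 (log2 4.64, SE 0.91, limma adjusted p = 0.0273), Mkrn3 (3.88) and Nap1l5 (3.36), and the lower ones Mirg, Osbpl5 (-3.32, SE 0.33, limma adjusted p = 0.00522) and Slc22a18 (-6.44, SE 0.81, limma adjusted p = 0.00873), a transporter gene of the Cdkn1c domain that was well above background on 1 of 2 glioma cell arrays. Neural stem cells against astrocytes had 7 higher and 6 lower (6.74% and 7.85% of all genes). Peg12 (4.22), Magel2 (4.08) and Mkrn3 (3.06), from the region of Ndn, were among the higher. Ndn itself differed by 0.42 (SE 0.65, limma adjusted p = 0.673). Snrpn, of the same region, stood at 2.67 and 1.84 in neural stem cells and 1.60 and 1.91 in astrocytes. Outside that region, Nap1l5 stood at 3.01 and 2.66 in neural stem cells and -0.10 and -0.46 in astrocytes. Glioma cells against neural stem cells had 0 higher and 2 lower (0.66% and 0.318% of all genes), Magel2 (-3.90, SE 0.51, limma adjusted p = 0.0496) and Asb4, which was not well above background in glioma cells. EZH2-KO glioma tissue had 8 higher and 0 lower than glioma cells (7.82% and 9.11% of all genes), 6 higher and 1 lower than neural stem cells (8.08% and 9.89%), and 12 higher and 4 lower than astrocytes (10.6% and 12.4%). Nap1l5 (3.99, SE 0.43, limma adjusted p = 0.00153), Mkrn3 (2.89) and Magel2 (2.67) were higher and Slc22a18 (-4.10, SE 1.08, limma adjusted p = 0.031) was lower in tissue than in astrocytes. Neuron markers averaged 3.02 to 4.31 in the tissue and 0.02 and 0.64 in astrocytes, and their part in these differences was not tested.

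Of 15 regulators that set or keep imprints, 13 were tested. In glioma cells against astrocytes 5 were called higher, where 9% of all genes were, and none lower: the DNA methyltransferase genes Dnmt1 (log2 2.84, SE 0.69, limma adjusted p = 0.0463), Dnmt3a (1.60) and Dnmt3b (2.46), the demethylation gene Tet1 (2.57) and Smchd1 (1.31). Neural stem cells had 4 higher than astrocytes (Dnmt3a, Dnmt3b, Setdb1 and Tet1, beside 6.74% of all genes) and none lower. EZH2-KO glioma tissue had 3 higher than astrocytes (Dnmt3a, Setdb1 and Tet1, beside 10.6% of all genes) and 1, Smchd1, lower than glioma cells by 1.15 (SE 0.30, limma adjusted p = 0.0391). Markers of dividing cells averaged 3.35 and 3.33 in glioma cells, 0.47 and 3.64 in neural stem cells and -1.56 and -0.84 in astrocytes. Their part was not tested.

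The genes most like each member over the 9 arrays, among 15599 named genes tested, were found by Pearson r as a description, since 9 arrays in 4 groups fix much of such a likeness. For Meg3 they were Thy1 (r = 0.99) and Chchd10 (0.98), for Plagl1 Bmp2k (0.99) and Fbxl13 (0.97), and for Dlk1 Sugct (0.97) and Mtfr1l (0.96). For H19 they were Tmem45a (r = 0.91) and Npl (0.91), for Cdkn1c Plekhm2 (0.93) and Snrk (0.91), for Mest Shoc1 (0.95) and Ccdc69 (0.93), and for Grb10 Zfp64 (0.97) and Btbd11 (0.95). For Peg3 they were Proser3 (r = 0.94) and Zfp663 (0.92), for Peg10 Hlx (0.91) and Prkab1 (0.91), and for Ndn Klhl22 (0.96) and Rps4l (0.92).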

How the data were processed

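RNA (200 ng, labelled with Cy3) of 9 mouse samples was measured on 9 arrays. The deposited scanner files give, per the file headers, spot intensity on a linear scale from Agilent Feature Extraction (10.7.3.1 for tissue and 10.7.1.1 for cells), background-subtracted within an array and not scaled between arrays. The authors' deposited table of log2 values, of which 99.01% to 99.81% per array lay within 0.01 of log2 of that intensity, served as an alternative; its column medians were 5.08 to 6.28. Control spots and outlier spots (96 to 164 on an array) were not used, and repeated spots were averaged, leaving 55666 of 55681 probes. Levels are log2 processed signals less the array's 75th percentile. Probe positions are those of the files (mm9). Symbols came from RefSeq (GRCm38.p6) by accession for 27213 probes, symbol for 3598 and synonym for 565, and 24290 kept the file's name.

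Tested probes were those well above background on all arrays of 1 group or more, and the brightest tested probe stood for a gene. limma 3.58.1 (R 4.3.3; lmFit, eBayes, two-sided, Benjamini-Hochberg) was fitted to the 6 cell arrays (24866 genes, 3 residual degrees of freedom) for cell comparisons and to all 9 (25397 genes, 5) for those with tissue. The number of arrays limits the precision. On simulated arrays with 25397 genes, glioma cells against astrocytes recovered 41.7% of 84 genes changed by 3 log2 units and 75% of 116 changed by 5. Tissue against glioma cells recovered 68.0% of 103 and 89.7% of 97. Far fewer genes were changed there than were called in the data (4684 and 4300), which makes the adjusted threshold stricter. These shares therefore do not give the power of the reported fits. Replicate numbers were not used as pairs in the main fits. Deviations of same-numbered samples correlated at -0.16 to 0.12. This cannot exclude pairing, since in a group of 2 arrays the deviation of 1 fixes that of the other. Named were all 10 genes; of other imprinted genes up to 3 called per direction with the largest change measured on both sides, with Igf2 and Igf2r; of regulators and of cell-cycle and insulin genes up to 2 per direction; and the 2 most alike genes. Further genes (Dnmt3b, Tet1, Smchd1, Setdb1, Dio3, Rtl1, Asb4, Grb7, Grb14, Snrpn and the neighbours on chromosome 7) were named after their values were seen. So were Mkrn3 and Nap1l5 in neural stem cells against astrocytes. The members and lists were chosen with earlier results of these data known.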

Additional observations from a re-analysis of the deposited data

How the results depend on the processing

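The 2 or 3 arrays of a group limit every value, and dim probes such as Igf2 lie near background. Of 984 recomputed fold changes of the 10 genes, 893 kept direction and side of the threshold, 37 reversed, 31 were no longer called and 23 became called; causes were not tested. The slide as a block could not be run, since tissue and cells lie on different slides. Normexp for fits with tissue used median spot signals, a choice made after seeing the data. Against the 75th percentile, the unscaled deposited table moved the median of all genes by -0.44 (glioma cells against astrocytes) to 0.54 (tissue against glioma cells), and median scaling by -0.19 to 0.03.

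Reversed fold changes were 0.14 for Peg10 in glioma cells against astrocytes (normexp); 0.23 for Grb10 in tissue against glioma cells (deposited table); in tissue against neural stem cells 0.50 for Peg10 and 0.39 for Plagl1 (deposited table) and 0.034 for Plagl1 (quantile); and 0.44 for Meg3 in tissue against astrocytes (mean of probes).

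The number of the 10 genes called in neural stem cells against astrocytes was 0, and 2 with normexp or the fit of all 9 arrays and 1 with quantile normalization, the deposited table or the stricter filter. In tissue against neural stem cells it was 1, and 0 with no filter. In tissue against astrocytes it was 1, and 2 with normexp, median scaling or the stricter filter, 3 in the fit of the 2 groups compared, and 0 with the deposited table or the mean of probes. With the replicate number as a block, which leaves tissue replicate 3 without a partner, it was 0 in tissue against neural stem cells and 0 in tissue against astrocytes, and H19 reversed to 0.79 in tissue against neural stem cells.

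With 1 array left out at a time, the number called ran from 0 to 2 in glioma cells against astrocytes (3 with all arrays), 0 to 1 in neural stem cells against astrocytes, 1 to 2 in tissue against glioma cells, 0 to 1 in tissue against neural stem cells and 0 to 3 in tissue against astrocytes. Fold changes that changed sign ran, in glioma cells against astrocytes, from -0.55 to 2.29 for Peg3, -3.95 to 2.96 for Mest and -1.41 to 5.81 for Grb10. In glioma cells against neural stem cells they ran from -1.92 to 0.93 for Peg3, -2.54 to 0.40 for Peg10, -2.23 to 1.02 for Dlk1 and -1.76 to 0.64 for Grb10. In neural stem cells against astrocytes they ran from -5.01 to 2.34 for H19, -0.75 to 2.19 for Peg10, -0.84 to 4.36 for Cdkn1c and -0.85 to 6.37 for Grb10. In tissue against glioma cells they ran from -0.51 to 2.34 for Peg3, -1.72 to 3.03 for Cdkn1c, -1.09 to 5.81 for Mest and -1.36 to 0.74 for Grb10. In tissue against neural stem cells they ran from -2.86 to 0.79 for H19, -0.064 to 0.90 for Peg3, -1.48 to 1.46 for Peg10, -0.43 to 0.20 for Plagl1 and -2.07 to 0.33 for Grb10. In tissue against astrocytes they ran from -6.02 to 1.33 for H19, -4.82 to 0.38 for Cdkn1c and -1.72 to 5.50 for Grb10.

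Counts over all genes moved as well. Over all alternatives other than leaving out an array they were 3441 to 6301 in glioma cells against astrocytes (4684 as reported), 49 to 486 in glioma cells against neural stem cells (243), 2682 to 5309 in neural stem cells against astrocytes (3627), 2600 to 5263 in tissue against glioma cells (4300), 2591 to 5264 in tissue against neural stem cells (4564) and 3176 to 6292 in tissue against astrocytes (5835). With an array left out they were 2033 to 4777, 0 to 299, 1232 to 2618, 1979 to 4643, 1644 to 4250 and 3184 to 6048 in the same order.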
